A study of Nothobranchius furzeri with 8 samples.

Results

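Asparagine, aspartate, histidine and tyrosine are carried in animal cells by nuclear-encoded tRNAs whose anticodon starts with G and has U in the middle, written here as DNA: tRNA-Asn-GTT, tRNA-Asp-GTC, tRNA-His-GTG and tRNA-Tyr-GTA. They form the queuosine family. They were chosen by anticodon, with earlier results of these data known. They make up 4 of 49 nuclear anticodons and 4 of 72 nuclear and mitochondrial anticodons counted. The 4 anticodons hold 33 of the 289 nuclear tRNA genes in the table (11.4%), with 8 genes for Asn-GTT, 11 for Asp-GTC, 6 for His-GTG and 8 for Tyr-GTA. In the table that splits reads by 3′ end they appear as 7 of 66 nuclear transcripts or clusters of near-identical transcripts. All 4 passed the read minimums of every test. tRNA-seq had been run on the whole brain of 8 African turquoise killifish (Nothobranchius furzeri), a short-lived fish, and each sample is labelled as the brain of one age, sex and replicate number. The young group held 2 males and 2 females of 5 weeks post-hatching (wph), and the old group 2 males and 2 females of 39 wph. The methods give the strain as MZM-0410 unless stated otherwise, and neither a treatment nor an engineered allele is labelled for either age. The brains are bulk tissue, so that fewer cells of a type and less RNA per cell cannot be told apart. The tables hold tRNAs alone, and the labelled tissue was not checked against marker genes.

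The G at the wobble position of these tRNAs can be replaced by queuosine, a modified guanosine that vertebrates cannot build themselves. Its base, queuine, comes from food and gut microbes, and an enzyme of the subunits QTRT1 and QTRT2 exchanges it for the encoded guanine. In vertebrates queuosine is further joined to galactose in the tyrosine tRNA and to mannose in the aspartate tRNA, while it stays unglycosylated in the asparagine and histidine tRNAs. Each of the 4 tRNAs reads a pair of codons that end in C or U, and queuosine is known to affect how evenly the members of such a pair are decoded. The tables used here count reads and their ends and do not measure queuosine, so that the family stands for tRNAs able to carry it.

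RNA had been kept mildly acidic so that amino acids stayed on their tRNAs, and then oxidized, which costs an uncharged tRNA its last base. Reads ending in CCA therefore stand for charged tRNA and reads ending in CC for uncharged tRNA. The samples held between 717858 and 3112101 reads, of which each of the 4 tRNAs took between 15780 (His-GTG, young male 2) and 126317 (Asp-GTC, old female 2). Each read is counted as 1 tRNA molecule, so levels are given as a share of nuclear tRNA reads without division by length. The RNA had passed through adapter ligation and reverse transcription, and whether all tRNAs were recovered equally was not tested. Means are given ± SD over the 4 brains of an age (n = 4) throughout, and lists of brains run in the order male 1, male 2, female 1, female 2. A pair of old brains stood apart in values taken over the nuclear tRNAs together, though not in each tRNA. In old female 2 the median nuclear anticodon was 64.6% charged, above 2 of the 4 young brains (62.4 to 71.5%) and above the other old brains (44.2 to 58.0%). In old female 1 24.6% of all nuclear reads ended in C alone, against 4.87 to 12.6% in the other 7 brains. Most tests of charging, of 3′ ends and of charged reads are therefore also given without each of them. Both brains were picked from the values tested, so calls made without either are not independent support for a difference with age.

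Of the 4 tRNAs His-GTG rose with age. Tyr-GTA was higher in every old than in every young brain but missed the threshold, and neither Asn-GTT, with a positive estimate, nor Asp-GTC, with a negative one, passed. The histidine tRNA took 2.35, 2.40, 2.14 and 2.23% of nuclear reads in the young brains. In the old brains it took 2.65, 2.75, 2.59 and 2.57%. All 4 old brains lay above all 4 young ones, and the means were 2.28% ± 0.118 and 2.64% ± 0.0794. Its log2 change of 0.21 (SE 0.05) had an adjusted p of 0.0353 (edgeR, quasi-likelihood, adjusted by Benjamini-Hochberg over 47 nuclear anticodons). The call needed most of the samples: it held in 2 of the 8 fits that left out 1 brain (adjusted p between 0.0330 and 0.116). In those, which left out old female 1 or old female 2, edgeR called 2 and 8 of the 47 anticodons. The estimate stayed between 0.18 and 0.24 over the 8 fits. With counts scaled to the bacterial spike-in tRNA, under which edgeR called 0 of 47 anticodons and 2 had an unadjusted p below 0.05, it was 0.34 (adjusted p = 0.814 by edgeR), and over all alternatives the adjusted p lay between 0.0101 and 0.814.

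Tyr-GTA is charged by the only class I synthetase of the 4. Its share was 2.96, 3.62, 3.61 and 3.62% in the young and 4.04, 4.34, 4.21 and 3.85% in the old brains. The ages again did not overlap, and young male 1 lay far below the other young brains. The means were 3.45% ± 0.326 and 4.11% ± 0.211, and the log2 change of 0.25 (SE 0.07) was the highest estimate of the 47 nuclear anticodons, with an adjusted p of 0.0642 by edgeR. Without young male 1 it was 0.18 (adjusted p = 0.118 by edgeR), and over all alternatives run the adjusted p lay between 0.0132 and 0.814.

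Asn-GTT had 2.90, 3.08, 2.99 and 2.80% in the young and 3.12, 3.46, 2.96 and 2.92% in the old brains. The ages overlapped, with only the 2 old males above all young brains. The means were 2.94% ± 0.122 and 3.12% ± 0.244, and the log2 change of 0.08 (SE 0.06) had an adjusted p of 0.415 by edgeR. Without old male 2 it was 0.026, and over the fits without 1 brain it reached 0.11 at most, while with spike-in scaling it was 0.20 (adjusted p between 0.258 and 0.814 over all alternatives). Asp-GTC, the most abundant of the 4 in young brains, took 4.42, 4.79, 4.54 and 4.19% in the young and 3.79, 4.11, 3.99 and 4.49% in the old brains. Only old female 2 fell within the young range, and the other 3 old brains lay below it. The means were 4.49% ± 0.250 and 4.10% ± 0.295, and the log2 change of −0.13 (SE 0.06) had an adjusted p of 0.256 by edgeR. Its sign turned with spike-in scaling (0.0033, adjusted p = 0.986), where the median over all nuclear anticodons was 0.12 and all 4 estimates were positive (adjusted p between 0.0721 and 0.986 over all alternatives). By sex, the mean of Asp-GTC was 0.652 points lower in old than in young males and 0.127 points lower in old than in young females (n = 2 per age and sex). The old mean of Asn-GTT was 0.301 points higher in males and 0.0498 in females. For Tyr-GTA it was 0.898 and 0.412 points higher, and for His-GTG 0.323 and 0.397. Differences between the sexes were not tested.

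**Figure D1:**
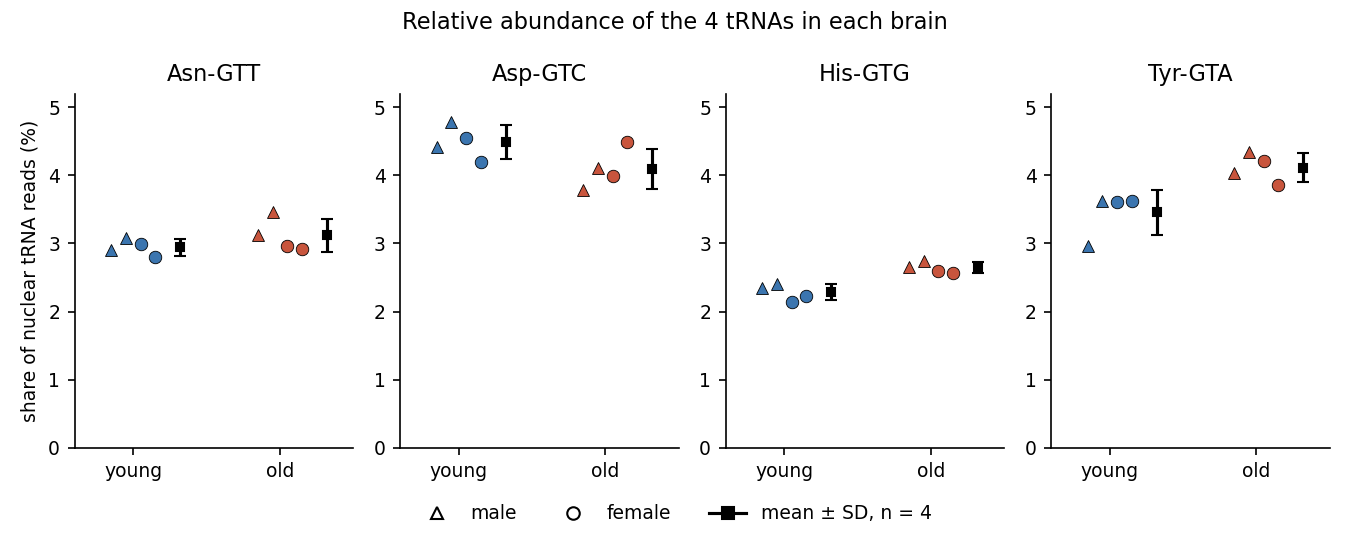
Share of nuclear tRNA reads (y axis, percent) of each tRNA in young and old brains; each triangle is a male and each circle a female, and black squares with bars are the mean ± SD of 4 brains. His-GTG (2.14 to 2.40% in young, 2.57 to 2.75% in old) and Tyr-GTA do not overlap between the ages, whereas Asn-GTT and Asp-GTC do.

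Thus 1 of the 4 was called, where 3 of 47 nuclear anticodons were called in all (6.38%). The ages did not overlap for 2 of the 4, against 8 of 47 anticodons (17%). The median log2 change was 0.15 over the 4 and 0.01 over the 47, whose estimates ran from −0.48 to 0.25. Ordered by estimate from the highest, the 4 ranked 1 (Tyr-GTA), 2 (His-GTG), 12 (Asn-GTT) and 40 (Asp-GTC). In young brains the order of the levels was Asp-GTC, Tyr-GTA, Asn-GTT and His-GTG. In old brains Asp-GTC and Tyr-GTA, with means of 4.10 and 4.11%, did not differ beyond their spread, and Tyr-GTA exceeded Asp-GTC in 3 of the 4. Added together the 4 tRNAs took 13.2% ± 0.556 of the nuclear reads in young and 14.0% ± 0.474 in old brains, with overlapping ranges of 12.6 to 13.9% and 13.6 to 14.7%. Per gene of the set counted here they lay close together, from 0.379% of nuclear reads for Asn-GTT to 0.473% for Tyr-GTA. The median over the nuclear anticodons was 0.309%. Another annotation lists 190 genes for Asn-GTT, 145 for Asp-GTC, 133 for His-GTG and 189 for Tyr-GTA. Those numbers stand in other proportions, so the closeness rests on the set of genes counted.

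The ratio of the reads of 2 tRNAs in a sample compares them without any scaling between samples, and it was computed for the 6 pairs. The largest shifts were those of Asp-GTC against the other 3. The log2 ratio of Asp-GTC to His-GTG was 0.91, 0.99, 1.08 and 0.91 in the young and 0.51, 0.58, 0.62 and 0.80 in the old brains. No old brain reached a young one, and the difference of the means was −0.34 (SE 0.07, exact permutation p = 0.0286, adjusted 0.129). This p is the smallest that 70 relabellings of 8 brains can give. Asp-GTC against Tyr-GTA had means of 0.38 ± 0.15 and −0.01 ± 0.15, a difference of −0.39 (SE 0.11, exact permutation p = 0.0571, adjusted 0.129), in which old female 2 at 0.22 exceeded young female 2 at 0.21. The log2 ratio of Asn-GTT to Asp-GTC differed by 0.21 (SE 0.09, exact permutation p = 0.114, adjusted 0.137). The 4 young brains had nearly the same Asn-GTT to Asp-GTC ratio, from −0.64 to −0.58, while the old ones spread from −0.62 to −0.25. That of Asn-GTT to His-GTG differed by −0.13 (SE 0.05) and to Tyr-GTA by −0.17 (SE 0.08), each with an exact permutation p of 0.0857 and an adjusted p of 0.129. For His-GTG to Tyr-GTA the difference was −0.04 (SE 0.10, exact permutation p = 0.83), smaller than its error. After adjustment over the 6 pairs 0 passed and 1 had an unadjusted exact p below 0.05. With this number of brains no pair could pass unless at least 4 of the 6 reached the smallest exact p.

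**Figure D2:**
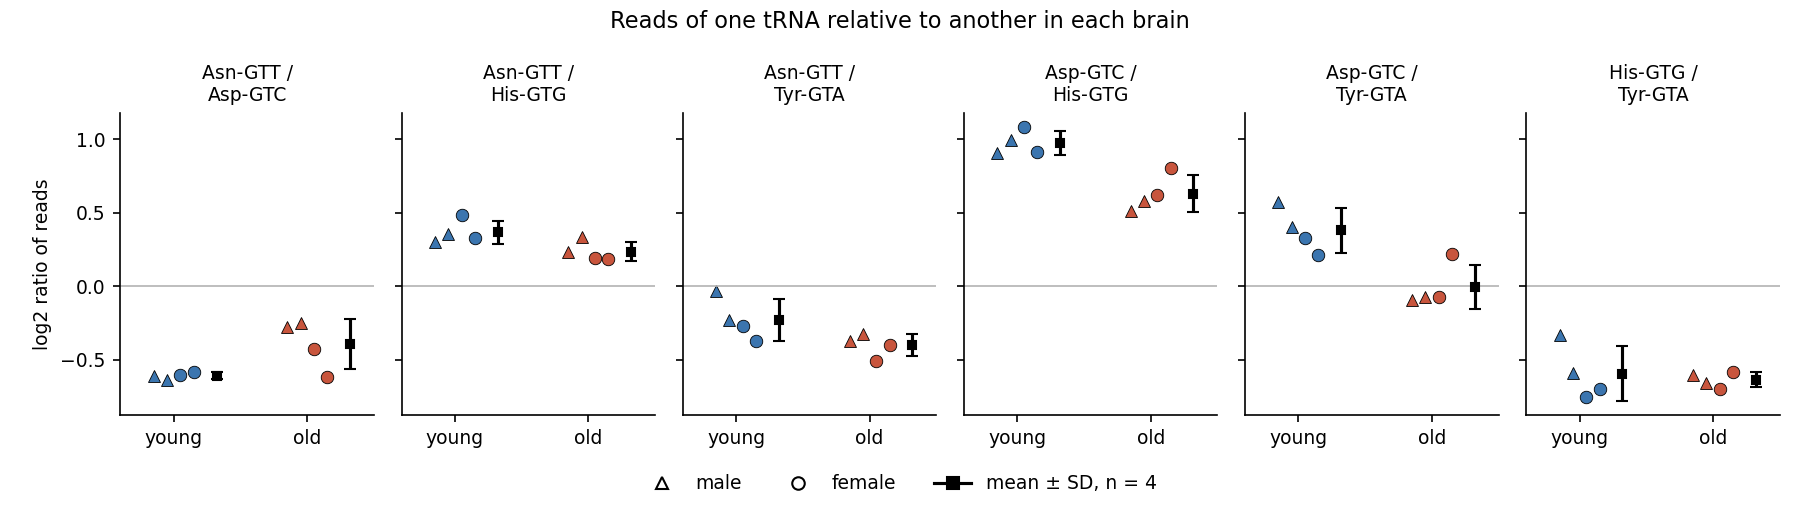
Log2 ratio of the reads of one tRNA to those of another (y axis) in each brain for the 6 pairs; triangles are males, circles females, and black squares with bars the mean ± SD of 4 brains. Asp-GTC over His-GTG lies between 0.91 and 1.08 in young and between 0.51 and 0.80 in old brains, and His-GTG over Tyr-GTA overlaps between the ages.

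The transcripts of Asp-GTC and of Tyr-GTA had unequal estimates, and the shift between them missed the threshold in each case. tRNA-Asp-GTC-1, the rarer transcript, took 0.699, 0.672, 0.577 and 0.461% of nuclear reads in the young and 0.460, 0.410, 0.396 and 0.489% in the old brains. Only old female 2 exceeded a young brain, young female 2. Its log2 change was −0.46 (SE 0.13), with an adjusted p of 0.0552 by edgeR over 66 transcripts and clusters. Among the fits with 1 brain left out it passed without young female 2 and without old female 2 only (adjusted p between 0.0341 and 0.174 over the 8 fits). In those fits 2 and 12 of the 66 transcripts and clusters were called. For tRNA-Asp-GTC-2, with 3.90% ± 0.196 in young and 3.67% ± 0.280 in old brains, the log2 change was −0.09 (SE 0.06), with an adjusted p of 0.393 by edgeR. The rarer transcript supplied 13.3% ± 2.03 of the Asp-GTC reads in young and 10.7% ± 1.04 in old brains (exact permutation p = 0.0571, adjusted 0.0857 over 3 such shares).

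tRNA-Tyr-GTA-1 ran from 2.50 to 3.16% in young and from 3.37 to 3.85% in old brains, without overlap, and its log2 change of 0.29 (SE 0.08) missed the threshold (adjusted p = 0.0542 by edgeR). The cluster tRNA-Tyr-GTA-3/2 had 0.494% ± 0.0450 in young and 0.488% ± 0.0336 in old brains, and its log2 change was −0.02 (SE 0.08), with an adjusted p of 0.886 by edgeR. Its share of the Tyr-GTA reads was 14.3% ± 1.43 and 11.9% ± 1.15 (exact permutation p = 0.0571, adjusted 0.0857). For Asn-GTT, tRNA-Asn-GTT-2 supplied 11.1% ± 1.37 and 10.6% ± 1.80 of the reads (exact permutation p = 0.6). tRNA-Asn-GTT-1 had a log2 change of 0.09 (SE 0.06) and tRNA-Asn-GTT-2 of 0.00 (SE 0.15). The transcripts of His-GTG were counted as the single cluster tRNA-His-GTG-1/2, whose log2 change was 0.21 (SE 0.05), with an adjusted p of 0.0226 by edgeR that passed in 4 of the 8 fits without 1 brain (0.0201 to 0.0729). Where the cluster passed, 5, 4, 6 and 12 of 66 were called (without young male 1, young male 2, old female 1 and old female 2). With all 8 brains it was the 1 member called of 7, where 6 of 66 transcripts and clusters were called (9.09%). The ages did not overlap for 2 of the 7, tRNA-His-GTG-1/2 and tRNA-Tyr-GTA-1, against 10 of 66 (15.2%).

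Mitochondria encode tRNAs with the same 4 anticodons, which can carry queuosine as well. They were measured in the same brains, and fitted together with the nuclear tRNAs they are on one scale. Reads of mitochondrial Asn-GTT made up 0.138, 0.145, 0.140 and 0.146% of the nuclear and mitochondrial reads in the young brains. They rose to 0.269, 0.303, 0.338 and 0.244% in the old brains. The ages did not overlap, and the log2 change of 1.00 (SE 0.11), with an adjusted p of 2.34e-05 by edgeR, was the highest of the 22 mitochondrial anticodons tested. The table by 3′ end held only 48.7 to 60.2% of these reads. Of those it held, 97.7 to 99.0% ended in none of CCA, CC and C. How far the reads count the mature tRNA was not tested. Mitochondrial Asp-GTC fell from 0.477% ± 0.0163 to 0.307% ± 0.0204, and its log2 change of −0.65 (SE 0.08), with an adjusted p of 3.26e-05 by edgeR, was the lowest of the 22. Mitochondrial His-GTG had 0.477% ± 0.0241 and 0.599% ± 0.0511, a rise of 0.31 on the log2 scale (SE 0.08) with an adjusted p of 0.0156 by edgeR. Mitochondrial Tyr-GTA had 0.271% ± 0.0279 and 0.385% ± 0.0443, a rise of 0.49 (SE 0.10) with an adjusted p of 0.00338 by edgeR.

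Beside these, the nuclear tRNAs in the same fit had log2 changes of 0.06 (Asn-GTT), −0.16 (Asp-GTC), 0.18 (His-GTG) and 0.22 (Tyr-GTA). His-GTG and Tyr-GTA both passed there (edgeR adjusted p = 0.0481 for each). In this fit 16 of 69 anticodons were called (23.2%). Among the mitochondrial ones 10 of 22 were called (45.5%), and the ages did not overlap for 11 of 22 (50%), so calls were common among mitochondrial tRNAs at large. All 4 counterparts were called and none overlapped. Nuclear and mitochondrial values come from the same libraries and are not independent of each other.

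**Figure D3:**
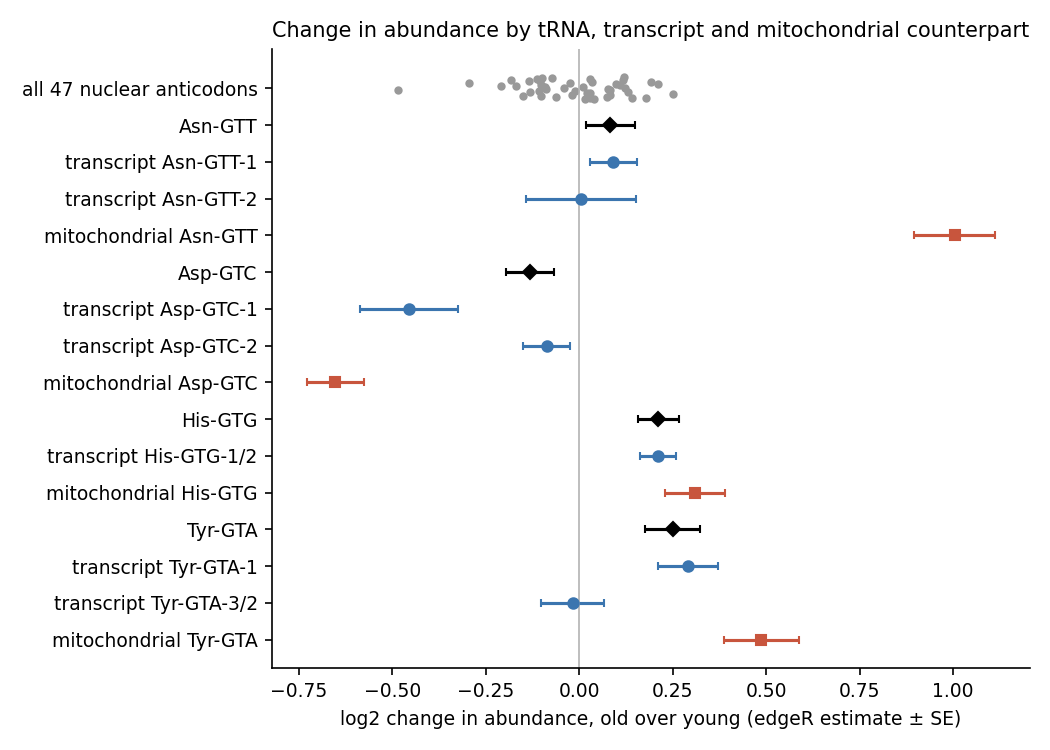
Log2 change in abundance, old over young (x axis, edgeR estimate with SE bars), of the 47 nuclear anticodons tested (grey points), the 4 tRNAs (black diamonds), their transcripts (blue circles) and the mitochondrial tRNAs of the same anticodon (red squares, from the joint fit). Aspartate values lie below 0, down to −0.65 in mitochondria, and the mitochondrial asparagine tRNA lies at 1.00.

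Charging was lower on average in old brains for all 4, and none passed the threshold. For Asn-GTT, the best charged of the 4, reads ending in CCA made up 80.7, 70.2, 79.1 and 71.3% of the CCA and CC reads in the young and 68.7, 70.5, 51.8 and 76.5% in the old brains. Old male 2 and old female 2 lay within the young range, and old female 1 was the lowest. The means were 75.3% ± 5.35 and 66.9% ± 10.6 (exact permutation p = 0.171, adjusted 0.201 over 47 anticodons). His-GTG had 73.2, 67.8, 72.4 and 71.4% in the young brains and 63.1, 61.8, 50.4 and 71.7% in the old ones. Its young values were the most alike of the 4 tRNAs, and 3 old brains lay below all of them. The means were 71.2% ± 2.36 and 61.8% ± 8.73 (exact permutation p = 0.0857, adjusted 0.185), a difference of −9.46 points. Over all 4 end classes, in place of CCA and CC alone, its CCA reads differed by −14.5 points (exact permutation p = 0.0857). The same measure differed by −14.6 points for Asp-GTC, −10.9 for Tyr-GTA and −9.92 for Asn-GTT (exact permutation p = 0.114, 0.171 and 0.171). On it His-GTG alone of the 4 passed without old female 2 (−19.4 points, exact permutation adjusted p = 0.0384). There 35 of the 47 anticodons passed. With old female 1 left out instead, 0 of the 47 passed.

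Asp-GTC was charged to 66.3, 52.9, 64.2 and 49.3% in young and to 41.7, 48.1, 33.8 and 59.7% in old brains. Old female 2 again exceeded 2 young brains, and the other 3 old brains fell below all young ones. The means were 58.2% ± 8.37 and 45.8% ± 11.0 (exact permutation p = 0.114, adjusted 0.185). Tyr-GTA was charged to 66.6, 50.9, 62.8 and 53.2% in young and to 49.1, 54.0, 45.2 and 53.8% in old brains. Here old male 2 and old female 2 lay within the young range, and old male 1 and old female 1 below it. The means were 58.4% ± 7.50 and 50.5% ± 4.21 (exact permutation p = 0.171, adjusted 0.201). At least 14196 reads stand behind each share. Counting error, as a 95% Wilson interval, was 0.773 points on either side at most, below the SD between brains in each group.

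**Figure D4:**
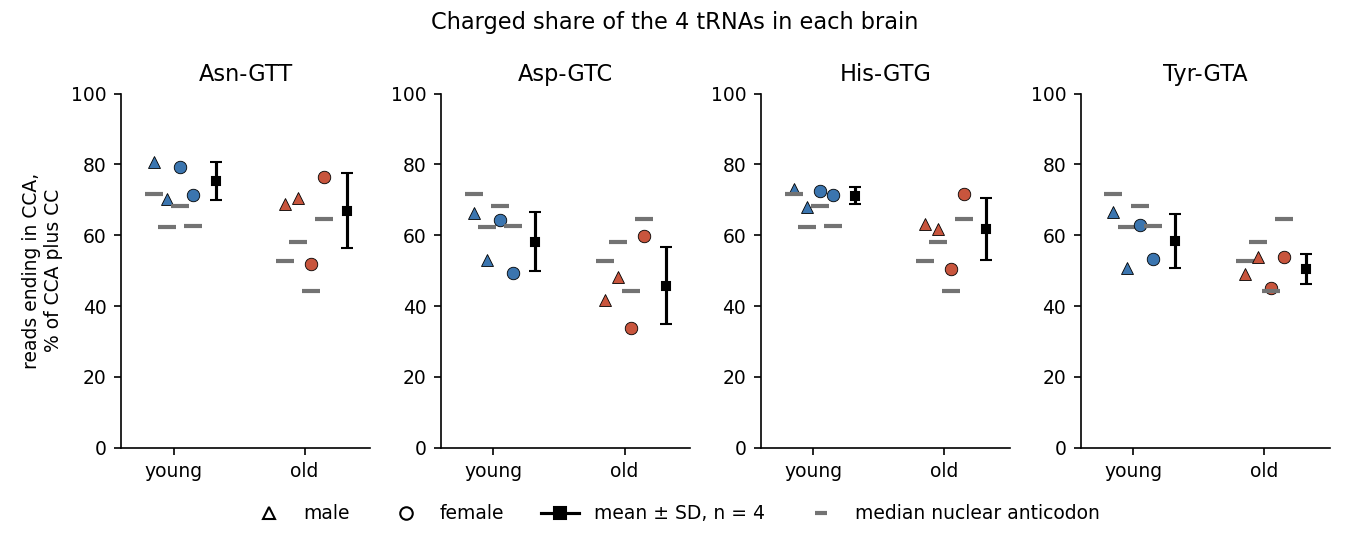
Charged share (y axis, reads ending in CCA as percent of CCA plus CC) of each tRNA by brain; triangles are males, circles females, black squares with bars the mean ± SD of 4 brains, and grey dashes the median nuclear anticodon of the same brain. Asn-GTT and His-GTG lie above the median of their brain in 8 of 8 brains, Asp-GTC lies below it in 8 of 8, and Tyr-GTA in all but old female 1.

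Between the ages, edgeR gave log2 odds of charging that differed by −0.74 for Asp-GTC (SE 0.36, adjusted p = 0.123), by −0.60 for His-GTG (SE 0.37, adjusted p = 0.166), by −0.58 for Asn-GTT (SE 0.36, adjusted p = 0.166) and by −0.47 for Tyr-GTA (SE 0.36, adjusted p = 0.229). None of the 4 was called, where 1 of 47 nuclear anticodons was (2.13%), and 1 of the 4 (Asp-GTC) and 18 of the 47 had an unadjusted p below 0.05. The median change was −0.59 over the 4 and −0.69 over the 47, all of which had a negative estimate. On the charged shares, 0 of the 47 passed the exact permutation test (smallest adjusted p = 0.185). The ages overlapped for each of the 4, as they did for all but 1 of the 47 (2.13% without overlap). Without old female 2 the changes were −0.80 (Asn-GTT, adjusted p = 0.0208), −1.01 (Asp-GTC, adjusted p = 0.00604), −0.81 (His-GTG, adjusted p = 0.0184) and −0.53 (Tyr-GTA, adjusted p = 0.117). In that fit 3 of the 4 and 38 of the 47 anticodons (80.9%) were called. Old female 2 had been picked for its high charging, so these calls do not stand on their own. By the exact permutation test on the charged shares without old female 2, 1 of the 4 passed (His-GTG, −12.8 points, adjusted p = 0.0420), as did 32 of the 47 (68.1%). Without old female 1 they were −0.27, −0.50, −0.37 and −0.36 in the same order, with adjusted p from 0.354 to 0.475 by edgeR. Over all alternative fits of the log2 odds, the lowest and highest adjusted p were 0.0208 and 0.475 for Asn-GTT, 0.00604 and 0.354 for Asp-GTC, 0.0184 and 0.400 for His-GTG, and 0.117 and 0.501 for Tyr-GTA.

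Each tRNA was also set against the median nuclear anticodon of its brain, which takes out what all nuclear tRNAs share, and 0 of the 4 passed the test between the ages. Asn-GTT stood 0.66 ± 0.15 above it in log2 odds in young and 0.76 ± 0.23 in old brains, and His-GTG 0.33 ± 0.19 and 0.42 ± 0.17 above it. Asp-GTC stood at −0.49 ± 0.24 and −0.54 ± 0.16, and Tyr-GTA at −0.48 ± 0.17 and −0.26 ± 0.29. The differences between the ages were 0.11, 0.09, −0.05 and 0.22 (exact permutation p = 0.486, 0.543, 0.743 and 0.171), with adjusted p from 0.806 to 0.977, and 0 of 47 anticodons passed while 3 had an unadjusted p below 0.05. Without old female 1 or old female 2 again 0 of 47 passed (3 and 5 with an unadjusted p below 0.05), and the largest difference among the 4 was 0.35 for Tyr-GTA without old female 2 (exact permutation p = 0.0286, adjusted 0.269). Among the 47 nuclear anticodons, ordered by charged share from the highest, Asn-GTT ranked 4 in both ages and His-GTG 9 in both. Asp-GTC ranked 38 in young and 39 in old brains, and Tyr-GTA 37 and 32. Compared with each other in the 6 pairs, the change in log2 odds differed by between −0.27 (Asp-GTC against Tyr-GTA, SE 0.24) and 0.15 (Asn-GTT against Asp-GTC, SE 0.14), with unadjusted exact permutation p of 0.229 or more and adjusted p of 0.891 or more.

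The charged shares of transcripts of one tRNA lay within 2.32 points of each other in every brain. tRNA-Asp-GTC-1 exceeded tRNA-Asp-GTC-2 by 1.08 ± 0.965 points in young and 1.55 ± 0.658 in old brains. The cluster tRNA-Tyr-GTA-3/2 exceeded tRNA-Tyr-GTA-1 by 1.11 ± 0.486 and 1.23 ± 0.432 points, in all 8 brains. tRNA-Asn-GTT-2 differed from tRNA-Asn-GTT-1 by −0.489 ± 1.10 and −0.717 ± 0.636 points. The ages differed in these gaps by at most 0.472 points (exact permutation p = 0.6 or more). None of the 7 transcripts and clusters passed in edgeR, where 1 of 66 did (1.52%). Without old female 2 the count was 5 of 7, all but those of Tyr-GTA (adjusted p between 0.00510 and 0.0242), where 52 of 66 were called (78.8%). The charged share of mitochondrial Asp-GTC was 69.8% ± 3.80 in young and 70.4% ± 6.77 in old brains, that of mitochondrial His-GTG 64.9% ± 4.96 and 65.4% ± 3.73, and that of mitochondrial Tyr-GTA 79.3% ± 4.63 and 75.4% ± 2.08 (edgeR adjusted p from 0.803 to 0.966). For mitochondrial Asn-GTT it could not be given. The ends of its reads, described above, left 3 to 40 reads ending in CCA or CC a sample.

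Reads that ended in C alone, past the point to which the oxidation shortens a tRNA, separated Asn-GTT from the other 3. They made up 1.16, 2.65, 1.60 and 2.94% of the Asn-GTT reads in the young and 3.57, 3.11, 9.67 and 2.59% in the old brains. The means were 2.09% ± 0.845 and 4.73% ± 3.31 (exact permutation p = 0.0857). For Asp-GTC they were 10.5% ± 3.36 and 19.0% ± 9.18 (exact permutation p = 0.143), and for His-GTG 7.33% ± 1.82 and 17.2% ± 10.8 (exact permutation p = 0.0857). Tyr-GTA ran from 5.62 to 13.4% in young and from 9.30 to 30.4% in old brains (exact permutation p = 0.2). Without old female 2 Asn-GTT and His-GTG passed (exact permutation adjusted p = 0.0344 for each), as did 39 of the 47 anticodons in all. With old female 1 left out instead, 0 of the 47 passed. Within every brain Asn-GTT was the lowest of the 4. Among the 47 nuclear anticodons, ordered by share of C ends from the highest, it ranked 46 in young and 44 in old brains. Outside the family, Ser-GCT had 2.02% in young and 4.60% in old brains, and Cys-GCA 2.19 and 5.26%. With reads that ended in none of the 3 forms added, the share of shortened Asn-GTT reads was the lowest of the 47 in both ages. Old female 1 was the highest brain for each tRNA, with 9.67% for Asn-GTT, 32.1% for Asp-GTC, 32.6% for His-GTG and 30.4% for Tyr-GTA ending in C, against at most 3.57, 18.4, 15.2 and 15.6% in the other 7 brains.

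Reads ending in C or in none of the forms were on average 2.81% in young and 5.74% in old brains for Asn-GTT (exact permutation p = 0.0571, adjusted 0.145), and 8.50 and 19.2% for His-GTG (exact p = 0.0857, adjusted 0.145). They were 11.4 and 20.3% for Asp-GTC (exact p = 0.143, adjusted 0.153) and 11.5 and 19.6% for Tyr-GTA (exact p = 0.171, adjusted 0.171). Old female 1 carried much of these differences. In His-GTG the old brains had 15.3, 16.5, 35.9 and 8.93%, against 6.07 to 10.6% in the young. Without old female 1 the difference between the ages went from 10.7 to 5.10 points for His-GTG, from 8.91 to 4.36 for Asp-GTC, from 8.08 to 3.04 for Tyr-GTA and from 2.93 to 1.15 for Asn-GTT, with exact permutation adjusted p from 0.275 to 0.380. Without old female 2 it was 14.1 points for His-GTG and 3.65 for Asn-GTT, which both passed (exact permutation adjusted p = 0.0336), and 11.5 and 11.0 for Asp-GTC and Tyr-GTA, which did not (0.0610). In that setting 40 of the 47 anticodons passed (85.1%). The mean was higher in old brains for 4 of 4 and for 47 of 47 nuclear anticodons, and 0 of the 47 passed by this exact permutation test, nor had any an unadjusted p below 0.05. Counted per 100 reads ending in CC, Asn-GTT had 6.12, 9.18, 7.84 and 10.6 C ends in young and 11.9, 10.9, 22.6 and 11.4 in old brains. The ages did not overlap, and this was the 1 of 47 nuclear anticodons (2.13%) of which that was true. Without old female 2 it was true of 39 of the 47. With all brains the lowest old value of Asn-GTT, 10.9, lay just above the highest young one, 10.6. Its difference between the ages did not pass with all brains (exact permutation adjusted p = 0.187) or without old female 1 (0.378). Without old female 2 it passed, as did that of His-GTG (exact permutation adjusted p = 0.0344 for each). There 39 of the 47 anticodons passed. Asp-GTC, His-GTG and Tyr-GTA had 18.0 to 35.5 in young and 22.6 to 103 in old brains.

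**Figure D5:**
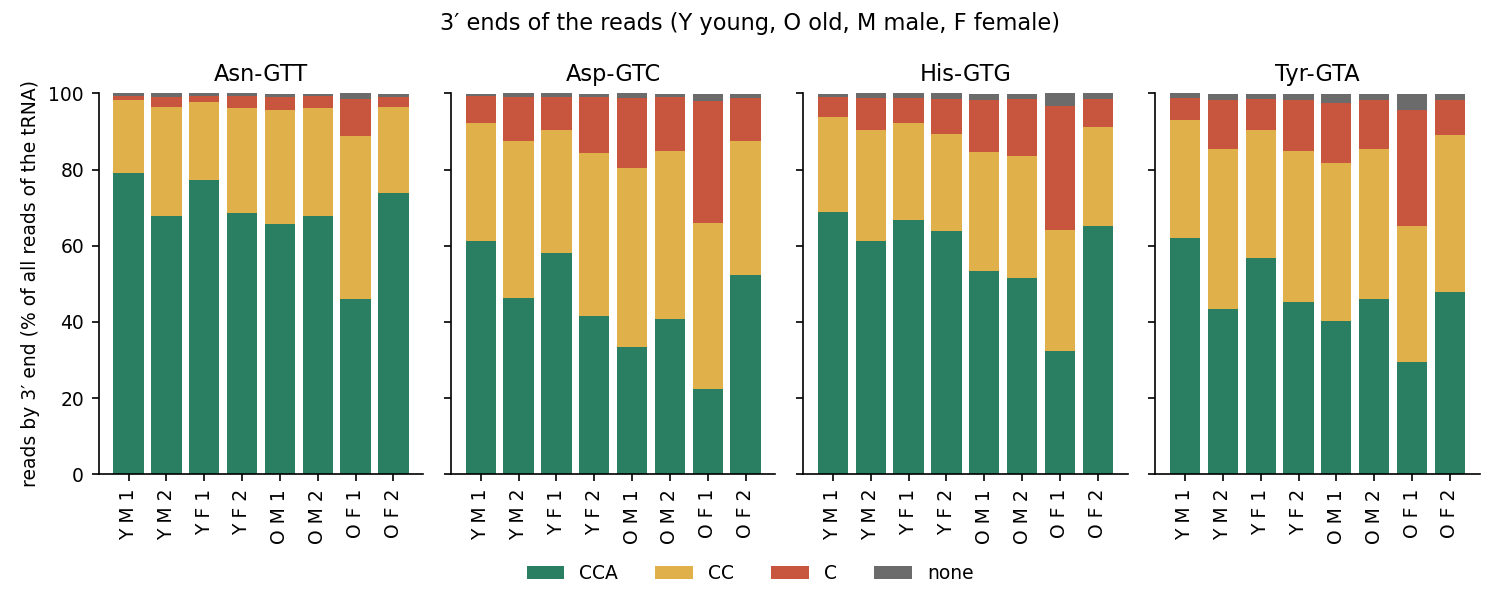
Reads of each tRNA by 3′ end (y axis, percent of all its reads) in each brain (Y young, O old, M male, F female, with the replicate number); colours are the 4 end classes. Ends in C alone reach at most 9.67% in Asn-GTT and 30.4 to 32.6% in the other 3 tRNAs, all in old female 1.

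Abundance and charging together give the charged reads of a tRNA, taken as its CCA reads in percent of all nuclear reads. For Asp-GTC, where both estimates were negative, it was 2.72, 2.22, 2.65 and 1.75% in the young and 1.27, 1.68, 0.894 and 2.35% in the old brains. Old female 2 lay above 2 young brains and the other 3 below all of them. The means were 2.33% ± 0.446 and 1.55% ± 0.624 (exact permutation p = 0.114), a log2 ratio of −0.59. For His-GTG, the tRNA called in abundance, the means were 1.49% ± 0.0904 and 1.34% ± 0.356 (exact permutation p = 0.543), a log2 ratio of −0.15. Asn-GTT had 2.16% ± 0.189 and 1.98% ± 0.428 (exact permutation p = 0.6) and Tyr-GTA 1.78% ± 0.216 and 1.68% ± 0.330 (exact permutation p = 0.657). The ages overlapped for 4 of 4, and 3 of the 47 nuclear anticodons had no overlap (6.38%). Without old female 1 the sign turned for 3 of the 4. The old means were then 2.19% for Asn-GTT, 1.51% for His-GTG and 1.83% for Tyr-GTA, while that of Asp-GTC was 1.77% (exact permutation adjusted p from 0.430 to 0.905). Without old female 2 they were 1.92, 1.23, 1.62 and 1.28% in the same order. There His-GTG passed (exact permutation adjusted p = 0.0480) and the other 3 did not, while 28 of the 47 passed (59.6%).

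Beside the 4 stand 4 further nuclear tRNAs with G at the wobble position that are not known to carry queuosine: Cys-GCA, Gly-GCC, Phe-GAA and Ser-GCT. Their log2 changes in abundance ran from −0.11 to 0.13 with a median of −0.03, and 1 of the 4 was positive, against −0.13 to 0.25, a median of 0.15 and 3 of 4 in the queuosine family. None of the 4 further tRNAs was called in abundance. Their changes in log2 odds of charging ran from −1.49 (Cys-GCA, adjusted p = 0.00327 by edgeR, the 1 nuclear anticodon called) to −0.25 (Phe-GAA), wider than the −0.74 to −0.47 of the queuosine family. The difference between these sets was not tested.

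Over the 8 brains the abundance of the 4 (log2 CPM after TMM scaling) varied in a shared way only in part. His-GTG correlated with Tyr-GTA (Pearson's r 0.69) and with Asn-GTT (0.65), and Asn-GTT with Tyr-GTA (0.61), while Asp-GTC had r of −0.15 with Asn-GTT, −0.46 with Tyr-GTA and −0.50 with His-GTG. The nuclear anticodons most like each of them were Ile-TAT (r 0.88) and Ser-TGA (0.83) for Asn-GTT, the same for His-GTG (0.78 and 0.74), Ile-AAT (0.75) and Thr-CGT (0.71) for Asp-GTC, and Pro-TGG (0.84) and Glu-TTC (0.82) for Tyr-GTA. These r values describe 8 brains that share libraries and the difference in age.

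The annotated neighbours of the genes were counted without regard to distance. In the RefSeq annotation of another assembly (NfurGRZ-RIMD1), which lists more genes than the high-confidence set counted in the tables, 187 of 190 genes for Asn-GTT (trnan-guu) placed on chromosomes had a tRNA gene as a direct neighbour. This was so for 143 of 145 genes for Asp-GTC, 130 of 133 for His-GTG and 185 of 189 for Tyr-GTA. A gene of the same anticodon was the neighbour for 183 of the Asn-GTT genes and 142 of the Tyr-GTA genes, but for 46 of the Asp-GTC and 59 of the His-GTG genes.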

How the data were processed

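The authors' pipeline ran cutadapt 3.5 for trimming, then mim-tRNAseq 1.3.8, whose alignment allows for the mismatches that modified bases leave, on a reference of high-confidence nuclear and of mitochondrial tRNAs. The deposited values are raw counts, per anticodon and per transcript or cluster and 3′ end. The identity used for clustering reads 0.97 in the file headers and differs in the paper's command, which could change which transcripts share a cluster. The 3′-end table holds 99.5 to 99.7% of the members' reads in the anticodon table. A further deposited column, of another kind, gives the number of genes per anticodon. Unused per-sample columns: 0.

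Here edgeR 4.0.16 (quasi-likelihood, TMM, R 4.3.3) tested the abundance of nuclear features that reached 10 counts in 4 samples or more. For charging it was fitted to CCA and CC counts with sample effects, where every sample had 100 such reads or more. P-values were adjusted by Benjamini-Hochberg over all features tested, with a threshold of 0.05. SE is the absolute log2 change over the square root of F for edgeR estimates. For the pairs of tRNAs it comes from the SD and n of both ages. Log2 odds of single samples used 0.5 as pseudocount. Exact permutation tests were two-sided and ran over all relabellings, which are 70 for 8 brains and fewer where a brain was left out. Wilson intervals came from scipy 1.17.1. Both edgeR models were checked on simulated data, with larger changes than those of the 4 members and with noise drawn separately for each tRNA. That check does not cover changes of the size reported for the members. Exact permutation p-values rest on the spread between the labelled samples alone. Those of edgeR also draw on the spread pooled over all tRNAs tested. In charging these tRNAs shift together in a brain and are not independent, so its p-values there can be too small. No 2 columns of one age were repeats. The named tRNAs are the 4 members, their transcripts, their mitochondrial counterparts, other G-starting anticodons and the 2 most correlated anticodons of each. Members and lists were chosen with earlier results of these data known.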

Additional observations from a re-analysis of the deposited data

Results flagged for a closer look

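Among 36 groups of 4 brains checked for a sample set apart from the rest, where about 1 in 20 is flagged by chance, 3 held one. In young brains the share of Tyr-GTA in nuclear reads was 2.96% in young male 1, while the other 3 lay between 3.61 and 3.62%. Its transcript tRNA-Tyr-GTA-1 had 2.50% in the same brain and 3.07 to 3.16% in the others, and the abundance of Tyr-GTA changed by 0.18 (log2) without that brain. In old brains 11.1% of the Asn-GTT reads ended in C or in none of the 3 forms in old female 1, against 3.58 to 4.45% in the other 3.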

How the results depend on the processing

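The estimates of the 4 tRNAs kept their sign in the 15 alternatives for abundance and the 13 for charging, except Asp-GTC when scaled to the spike-in (log2 change 0.0033, adjusted p = 0.986). That scaling moved the median nuclear anticodon to 0.12; relative to this median Asp-GTC stood at −0.12. The call of His-GTG was lost with the spike-in (0.34, adjusted p = 0.814), with the replicate block (0.21, adjusted p = 0.0519) and in 6 of 8 fits without 1 brain (0.18 to 0.24; adjusted p over all alternatives 0.0101 to 0.814). Tyr-GTA passed with DESeq2 1.42.0 (0.25, adjusted p = 0.0132), with library size scaling (0.25, adjusted p = 0.0441), with mitochondrial tRNAs (0.22, adjusted p = 0.0481) and without old female 2, its range without 1 brain being 0.18 to 0.28 (adjusted p over all alternatives 0.0132 to 0.814). Over all nuclear anticodons, 6 were called in abundance with DESeq2, 0 with the spike-in and 0 to 8 without 1 brain, in place of 3, and 16 of 69 with mitochondrial tRNAs in the fit.

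Charging without 1 brain ranged from −0.80 to −0.27 (Asn-GTT), −1.01 to −0.50 (Asp-GTC), −0.81 to −0.37 (His-GTG) and −0.61 to −0.30 (Tyr-GTA), with calls only without old female 2. With the odds scaled to the spike-in, charged shares differed between the ages by −10.9 (Asn-GTT), −14.4 (Asp-GTC), −12.0 (His-GTG) and −10.2 points (Tyr-GTA). The unscaled differences were −8.44, −12.4, −9.46 and −7.84 points. Exact permutation p with the scaling was 0.143, 0.114, 0.0571 and 0.0857, not adjusted. Among pairs, leaving out 1 brain turned the sign of small differences: His-GTG against Tyr-GTA in abundance (−0.095 to 0.045), and in charging Asn-GTT against His-GTG (−0.093 to 0.12) and Asn-GTT against Tyr-GTA (−0.27 to 0.095). Of the transcripts, tested without single brains and with the block after the data were seen, tRNA-Asn-GTT-2 (−0.085 to 0.13, and −0.0031 with the replicate block) and tRNA-Tyr-GTA-3/2 (−0.054 to 0.046) changed sign. So did the difference in CCA reads, in points of nuclear reads, which was positive without old female 1 and negative without old female 2: 0.027 and −0.24 (Asn-GTT), 0.018 and −0.26 (His-GTG), 0.048 and −0.15 (Tyr-GTA), also chosen after the data were seen.

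Samples of equal sex and number are different fish. Their deviations from the age means correlated between −0.37 and 0.20 in abundance and between −0.28 and 0.79 in charging over 47 anticodons. In each, 2 of 8 brains were closest to their own number. Whether samples of equal number share more than that number cannot be told from this. With that block 1 anticodon was called in abundance in place of 3 and 0 in charging in place of 1. The cause of these changes was not tested.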
